A study of Mus musculus with 22 samples.

Results

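The sensory neuropeptide genes described here were 10 genes taken by symbol out of the 55487 genes of the deposited count tables: Calca, Calcb, Tac1, Adcyap1, Gal, Npy, Sst, Nppb, Nts and Vip. Each symbol matched 1 Ensembl gene (ENSMUSG00000030669 for Calca, ENSMUSG00000030666 for Calcb, ENSMUSG00000061762 for Tac1, ENSMUSG00000024256 for Adcyap1, ENSMUSG00000024907 for Gal, ENSMUSG00000029819 for Npy, ENSMUSG00000004366 for Sst, ENSMUSG00000029019 for Nppb, ENSMUSG00000019890 for Nts, ENSMUSG00000019772 for Vip), and the rule itself uses no measured value. Bulk RNA was sequenced from dorsal root ganglia (DRG), the clusters of sensory neuron cell bodies beside the spinal cord, and from cultures of mouse DRG neurons, in 22 libraries. The ganglia came from wild-type (WT) mice and from mice whose genotype is labelled Postn knock out (KO). Donors had received vehicle or imiquimod (IMQ), a skin irritant used to model psoriasis, for 5 days. These were 3 WT vehicle, 2 WT IMQ, 3 KO vehicle and 2 KO IMQ libraries. The cultures held WT or KO neurons kept for 72 h in medium with recombinant periostin (rPOSTN) or without it (control), with 3 libraries in each of the 4 groups. Periostin, the product of Postn, is a secreted matrix protein that fibroblasts make. The strain, age and sex of the mice, the design of the knockout allele and the number of animals behind a library are not given in these sources, so p-values measure the spread between libraries, which may be partly technical.

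Neuropeptides are made as larger precursors, cut by prohormone convertases in dense-core vesicles, and released from the peripheral and central ends of sensory neurons. In the ganglion, calcitonin gene-related peptide (CGRP) and substance P mark peptidergic nociceptors and act on blood vessels, immune cells and spinal cord neurons, whereas natriuretic peptide B and somatostatin mark a class of itch neurons. Galanin and neuropeptide Y are known to be scarce in the uninjured ganglion and to be induced in sensory neurons whose axons have been cut.

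The regulatory sequence in front of 4 of the genes is shown first, because Gal and Nts were the abundant peptides that rose in culture with the largest factors, and Sst and Nppb were the itch neuron peptides that fell. Each run is the 250 bases before the RefSeq start of the gene in GRCm38.p6, written 5′ to 3′ on the strand of the gene. The windows lie at chr19:3414545-3414794 (minus strand), chr10:102490419-102490668 (minus), chr16:23890845-23891094 (minus) and chr4:147985650-147985899 (plus). Capitals mark a cyclic AMP response element (CRE, TGACGTCA), an AP-1 motif (TGANTCA) or a TATA box (TATAAA, searched on the gene's strand only, the others on both strands).
Gal: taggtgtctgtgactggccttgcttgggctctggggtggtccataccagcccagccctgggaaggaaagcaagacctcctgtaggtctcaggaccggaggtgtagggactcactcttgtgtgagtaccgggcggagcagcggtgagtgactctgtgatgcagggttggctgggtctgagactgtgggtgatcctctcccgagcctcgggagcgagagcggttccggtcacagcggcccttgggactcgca
Nts: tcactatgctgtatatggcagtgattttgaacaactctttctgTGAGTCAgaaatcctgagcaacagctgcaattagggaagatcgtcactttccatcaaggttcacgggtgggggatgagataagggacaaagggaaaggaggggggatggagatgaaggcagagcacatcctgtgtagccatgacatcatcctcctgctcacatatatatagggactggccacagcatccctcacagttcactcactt
Sst: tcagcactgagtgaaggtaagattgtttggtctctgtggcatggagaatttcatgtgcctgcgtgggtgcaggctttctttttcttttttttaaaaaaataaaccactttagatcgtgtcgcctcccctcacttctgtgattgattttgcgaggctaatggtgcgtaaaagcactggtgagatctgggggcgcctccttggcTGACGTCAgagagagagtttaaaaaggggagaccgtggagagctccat
Nppb: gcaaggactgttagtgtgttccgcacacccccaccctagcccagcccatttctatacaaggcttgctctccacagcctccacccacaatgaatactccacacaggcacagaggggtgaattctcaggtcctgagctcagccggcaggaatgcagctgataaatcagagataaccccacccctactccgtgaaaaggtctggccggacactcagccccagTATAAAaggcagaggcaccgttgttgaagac
RefSeq windows were matched for 9 of the 10 genes, all but Calcb, with 2 start sites for Adcyap1. The full CRE was found in Sst alone, from 48 to 41 bases before the start, and 1.55% of 32851 promoter windows of the same length hold it. The AP-1 motif was found in Nts alone, from 207 to 201 bases before the start, against 6.75% of all windows. The CRE core TGACG, which overlaps the full CRE in Sst, was present in Calca, Tac1, Adcyap1, Sst, Nts and Vip, against 17.8% of all windows. TATAAA was present in Nppb, in Vip and at the second Adcyap1 start, against 7.59%. These matches are letters in a window, and no factor binding was measured.

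The series as a whole set the frame for these values. Library totals ran from 16.7 to 24.1 M counts, and levels are counts per M (CPM) on library sizes scaled by the trimmed mean of M-values (TMM). Postn, the gene the genotype targets, was 21.9 to 52.5 CPM in WT ganglia, 3.63 to 7.86 in KO ganglia, 655 to 960 in WT cultures and 67.0 to 104 in KO cultures 1 and 2, while KO culture 3 held 382 CPM without and 426 with rPOSTN. Neuronal identity was checked with 15 pan-neuronal genes, whose summed level was 19775 to 22950 CPM in ganglia and 7786 to 10364 in cultures, beside 2142 to 3181 and 1588 to 3126 CPM for 10 fibroblast markers. The fibroblast list includes Postn itself, so its sum varies with the Postn levels above, and Thy1, which also counts among the pan-neuronal genes. Markers of other cells were thus present in the cultures labelled as neurons. In bulk RNA, fewer neurons of a type and less mRNA per neuron cannot be told apart.

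The 10 genes spanned a wide range in the ganglion. Calca, which encodes the alpha form of CGRP and the hormone calcitonin, was the most abundant in the WT vehicle ganglia at 856 ± 167 CPM per kb of exon (SD, n = 3). Calcb, which encodes the beta form of CGRP, followed at 145 ± 31.4 CPM per kb, and Tac1, the precursor of substance P and neurokinin A, at 93.8 ± 15.6. The order went on with Adcyap1, the precursor of the peptide PACAP, at 37.3 ± 4.48 CPM per kb, and Gal, the galanin precursor, at 30.1 ± 9.68, neighbours that did not differ beyond their spread. Sst (somatostatin, 20.9 ± 7.41), Nppb (natriuretic peptide B, 19.3 ± 4.94) and Nts (neurotensin, 14.4 ± 2.9 CPM per kb) formed the next step and likewise overlapped in spread. Npy, the neuropeptide Y precursor, stood at 0.623 ± 0.999 CPM per kb and Vip, the vasoactive intestinal peptide precursor, at 0.0569 ± 0.0303. Vip had 0 to 5 counts in each of the 22 libraries, a total of 10 counts in WT vehicle ganglia against 3 in WT control cultures, and it passed the filter on low counts in none of the comparisons, so it has levels and no test. The other 9 genes passed that filter over the 22 libraries, and Sst was left out of 1 comparison for low counts. The 2 CGRP genes could be told apart by reads, since 0.715% of the 50-base windows of Calca exons also occur in Calcb.

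**Figure D1:**
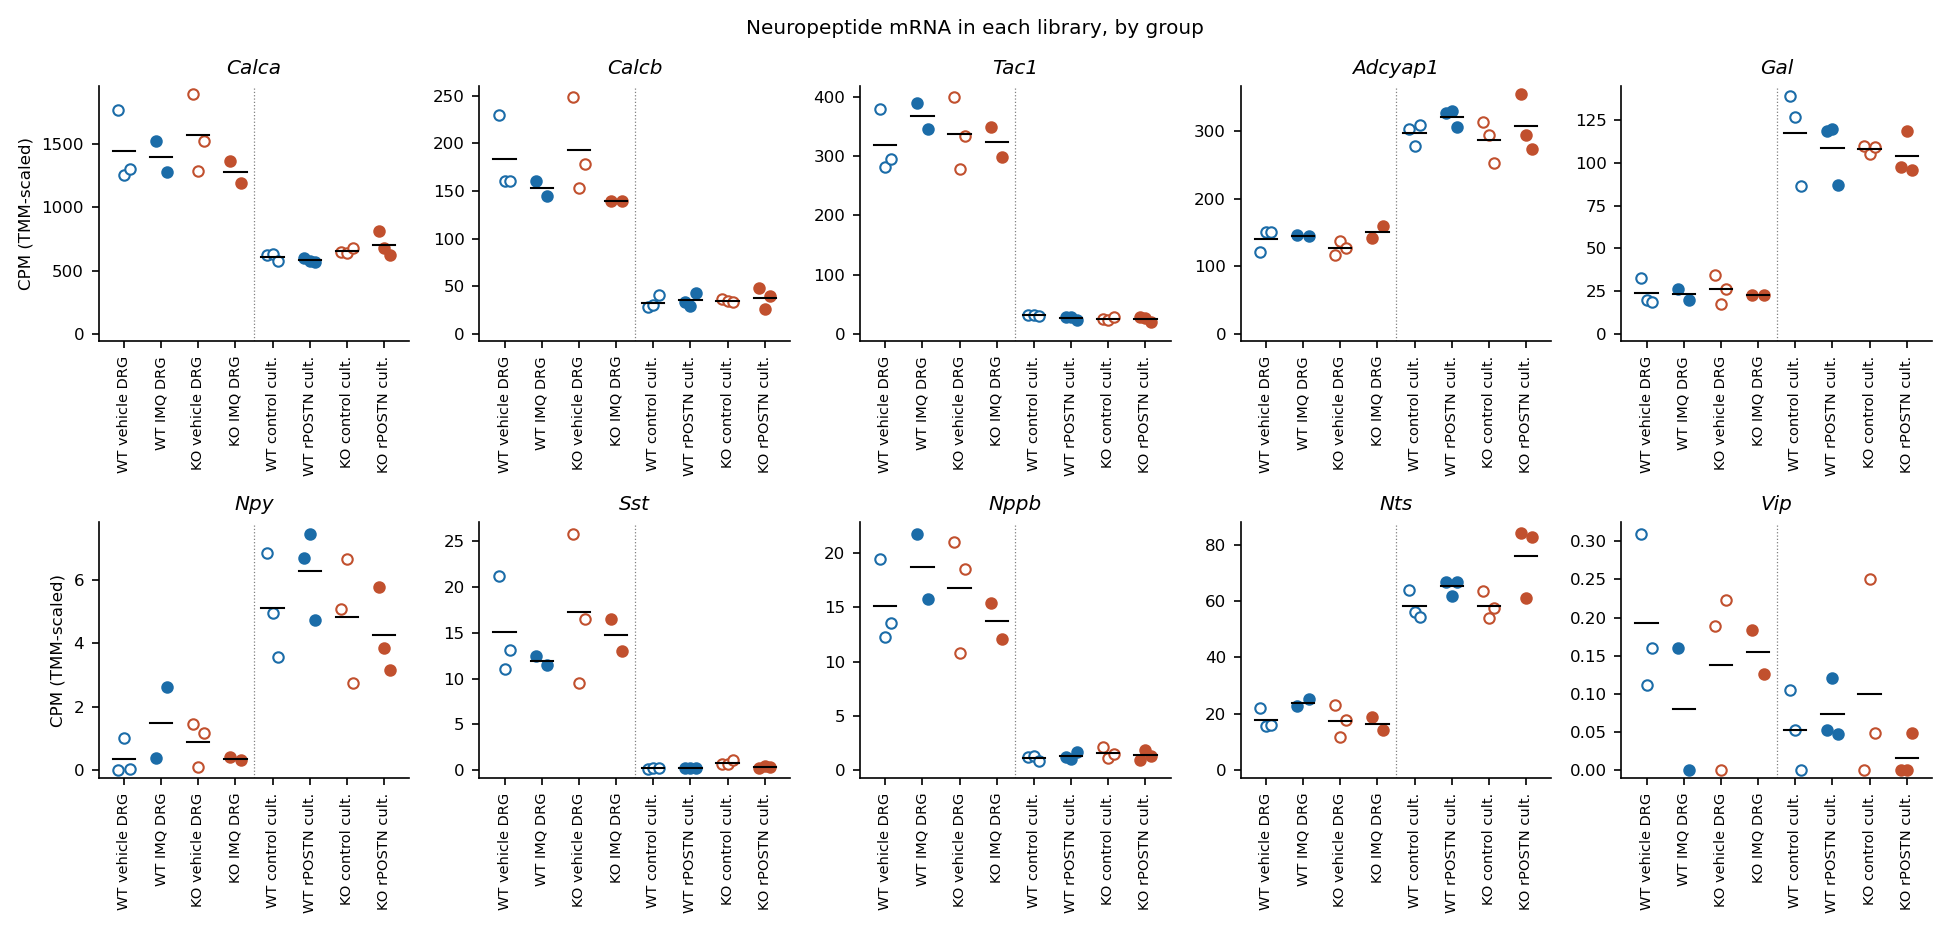
Level of each neuropeptide gene (CPM, TMM-scaled) in the 22 libraries by group, with a bar at the group mean. Open points are vehicle or control libraries, filled points IMQ or rPOSTN libraries, blue WT and orange KO, and the dotted line separates ganglia (DRG) from cultures. Each panel has its own scale, and for every gene except Vip no culture library falls within the range of the ganglion libraries.

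Culture against the freshly taken ganglion was the comparison in which the neuropeptide genes changed. In both genotypes 9 of the 9 genes tested were called with edgeR's quasi-likelihood test at an adjusted p below 0.05, with Adcyap1, Gal, Npy and Nts higher in control cultures and Calca, Calcb, Tac1, Sst and Nppb lower. Most genes of the genome were called too: 72.1% of the 17065 genes tested in WT (36.1% higher and 36% lower) and 65.6% of 17184 in KO (32.6% higher and 33% lower). Since most genes were called, the count says little about the neuropeptide genes, and the sizes and directions are given gene by gene. Culture, deposited table and the vehicle given to the ganglion donors coincide here and cannot be told apart. Xist, an RNA of female cells, was 234 to 251 CPM in WT vehicle ganglia and 0.421, 0.790 and 1142 CPM in WT control cultures. The part of sex in this comparison was not tested.

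Among the nociceptor peptides, Tac1 fell most. Its level was 379.5, 282 and 296 CPM in WT vehicle ganglia and 31.3, 32.0 and 30.1 CPM in WT control cultures, and 399, 279 and 334 against 24.97, 23.3 and 28.8 in KO. Every ganglion library was far above every culture library. The log2 fold change was −3.35 ± 0.14 (SE, edgeR adjusted p = 1.09e-07) in WT and −3.74 ± 0.17 (1.1e-07) in KO, a 10.2-fold and a 13.4-fold lower level. Calcb was 229, 161 and 161 CPM in WT vehicle ganglia and 28.0, 29.8 and 40.4 in WT control cultures, 5.59-fold lower (log2 −2.48 ± 0.19, edgeR adjusted p = 3.67e-06), and in KO it was 5.64-fold lower (log2 −2.50 ± 0.19). Calca, from the neighbouring gene of the same family, was 1766, 1255 and 1306 CPM in WT vehicle ganglia and 624, 633 and 574 in WT control cultures. Its groups did not overlap either, but the change was smaller, 2.36-fold lower in WT (log2 −1.24 ± 0.14, edgeR adjusted p = 5.19e-05) and 2.44-fold in KO (log2 −1.29 ± 0.15). The 3 genes thus kept their order, with Tac1 the largest and Calca the smallest decrease in each genotype.

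Sst and Nppb, the peptide genes named above as marks of a class of itch neurons, fell as well. Sst was 21.1, 11.05 and 13.1 CPM in WT vehicle ganglia and 0.158, 0.211 and 0.291 CPM, that is 3, 4 and 7 counts, in WT control cultures. It was 25.7, 9.52 and 16.4 CPM in KO vehicle ganglia and 0.678, 0.651 and 1.16 CPM in KO control cultures. The ganglia were higher throughout, and the log2 fold change of culture over ganglion was −6.02 ± 0.38 in WT (edgeR adjusted p = 1.07e-06) and −4.39 ± 0.42 in KO (9.93e-06). Whether the 2 genotypes differ in this change was not tested as an interaction. Nppb was 19.5, 12.2 and 13.5 CPM in WT vehicle ganglia against 1.21, 1.32 and 0.833 in WT control cultures, 13.5-fold lower (log2 −3.76 ± 0.26, edgeR adjusted p = 1.75e-06), and 10.5-fold lower in KO (log2 −3.40 ± 0.32). Of the 8 markers of these itch neurons other than the peptides, 5 fell and 1 rose in each genotype, among them Il31ra, an interleukin-31 receptor gene (log2 −4.36 ± 0.20 in WT), and Cysltr2, a leukotriene receptor gene (−3.62 ± 0.19). When libraries were scaled to pan-neuronal genes, described further on, 4 of the 8 were higher and 3 lower in each genotype.

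Gal, Nts, Adcyap1 and Npy moved the other way. Gal was 32.5, 20.0 and 18.7 CPM in WT vehicle ganglia and 139, 127 and 86.2 CPM in WT control cultures, and 34.7, 17.2 and 26.1 against 109.8, 105 and 109 in KO. Even the lowest culture library was above the highest ganglion library. The increase was 4.96-fold in WT (log2 2.31 ± 0.25, edgeR adjusted p = 2.88e-05) and 4.09-fold in KO (log2 2.03 ± 0.22). Nts, whose peptide acts on neurotensin receptors and is hypotensive and analgesic, was 22.2, 15.8 and 16.05 CPM in WT vehicle ganglia and 64.0, 56.2 and 54.3 in WT control cultures. It rose 3.24-fold in WT (log2 1.70 ± 0.15, edgeR adjusted p = 9.2e-06) and 3.27-fold in KO (log2 1.71 ± 0.22). Adcyap1 was the abundant gene of this set, at 121, 150.2 and 151 CPM in WT vehicle ganglia and 303, 278 and 308 in WT control cultures. Its increase was 2.11-fold in WT (log2 1.08 ± 0.11, edgeR adjusted p = 1.58e-05) and 2.22-fold in KO (log2 1.15 ± 0.12), again with no overlap between ganglia and cultures.

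Npy rose from near absence. It had 0, 18 and 1 counts in the WT vehicle ganglia (0, 1.005 and 0.0533 CPM) and 130, 94 and 86 counts (6.84, 4.95 and 3.58 CPM) in WT control cultures. In KO it was 1.45, 0.0967 and 1.17 CPM against 5.08, 6.66 and 2.75. The groups did not overlap, but the ganglion libraries differed widely among themselves. The log2 fold change was 3.81 ± 0.69 in WT (edgeR adjusted p = 0.000824) and 2.43 ± 0.62 in KO (0.00576), and without WT vehicle ganglion 2, which held most of the counts of its group, it was 7.20. Npy is also made by sympathetic neurons, which can cling to dissected ganglia, so their markers were read beside it. The 8 listed markers summed to 4.29 to 6.14 CPM per ganglion library and 4.98 to 11.7 CPM per culture library, and of the 3 tested 2 were higher and 1 lower in WT cultures, 1 and 1 in KO. The noradrenaline enzyme gene Dbh had 0 to 3 counts per ganglion library and 0 to 7 per culture library, and Slc6a2, the noradrenaline transporter gene, 4 to 17 and 0 to 7. Phox2a, a transcription factor of that lineage, had 0 to 2 counts per ganglion library and 27 to 96 per culture library, and the part of these cells in the Npy values was not tested.

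Other readouts moved with culture beside the peptides. Of 15 pan-neuronal genes 12 fell in each genotype (median log2 −1.25 in WT and −1.37 in KO, against −0.01 and −0.00 over all genes). Of 14 peptidergic nociceptor markers 11 fell in WT and 12 in KO, with 1 higher in each, and on the pan-neuronal scale described next 9 were lower in each and 5 and 4 higher. All 13 axon injury genes tested of a list of 14 were higher in both genotypes (median log2 2.86 and 3.05), among them Atf3, an injury-induced transcription factor (4.46 ± 0.16 in WT), and Sprr1a, an axon growth protein (7.52 ± 0.28). Where libraries were scaled to the 15 pan-neuronal genes in place of TMM, the median of all genes moved to 1.07 in WT and 1.28 in KO, and the calls became 12265 higher and 2237 lower in WT (6163 and 6149 with TMM) and 12642 and 1774 in KO (5596 and 5678 with TMM). On that scale Calca was no longer called, at a log2 fold change of −0.16 in WT (edgeR adjusted p = 0.292) and 0.01 in KO (0.965), while Calcb (−1.41 and −1.21), Tac1 (−2.28 and −2.45), Nppb (−2.68 and −2.11) and Sst (−4.96 and −3.09) remained lower. Gal (3.38 and 3.32), Nts (2.77 and 3.00), Adcyap1 (2.15 and 2.44) and Npy (4.87 and 3.71) remained higher. The change of scale moves all genes by nearly the same amount, so Calca necessarily lay below their median on both scales.

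**Figure D2:**
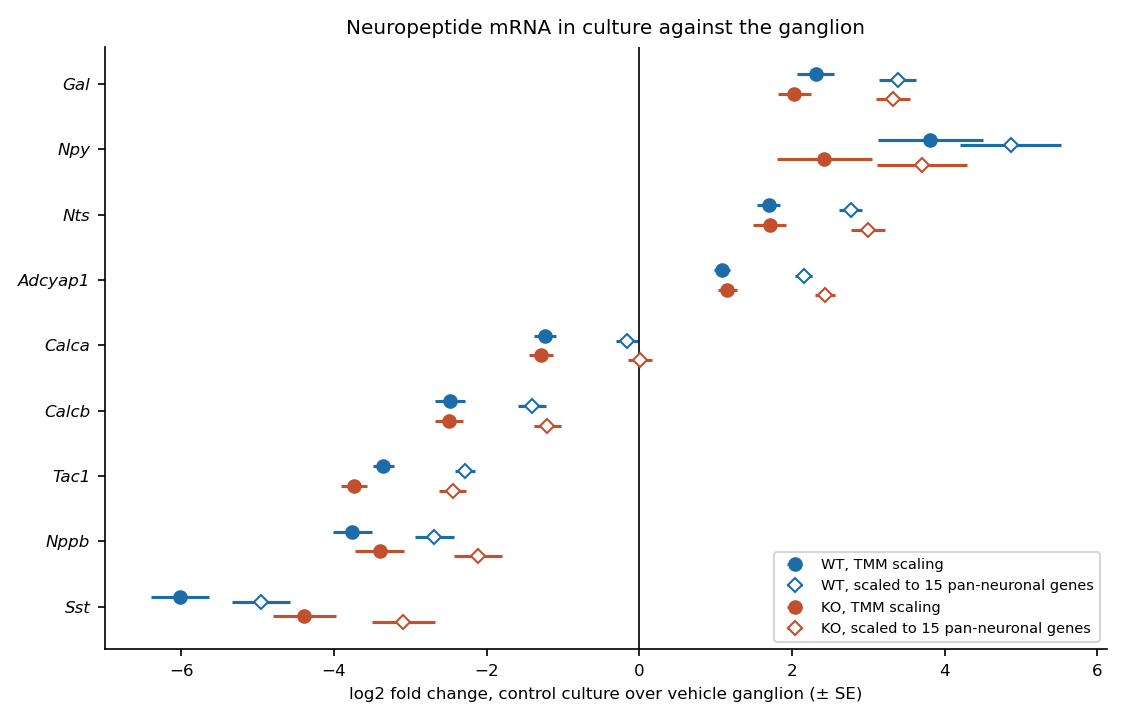
Log2 fold change (± SE) of each neuropeptide gene in control cultures over vehicle ganglia, WT in blue and KO in orange. Filled circles use TMM scaling and open diamonds the scaling to 15 pan-neuronal genes, on which Calca sits at −0.16 in WT and 0.01 in KO, no longer lower in KO, while the other 8 genes tested stay on their side of 0.

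The make-up of the neuropeptide pool restates the same levels as shares, in which the scaling of the libraries cancels out. Shares have a fixed sum, so gains of some genes and losses of others are tied together and are no separate evidence. As a share of the summed CPM per kb of the 10 genes, Calca took 69.0 to 71.9% in each of the 10 ganglion libraries and 50.6 to 58.4% in each of the 12 cultures. Tac1 took 7.36 to 9.26% in ganglia and 0.857 to 1.42% in cultures, and Calcb 9.59 to 12.3% and 2.87 to 5.31%. Gal rose from 2.06 to 2.80% of the pool in ganglia to 14.97 to 24.4% in cultures, becoming its second gene. Adcyap1 (1.93 to 4.13% against 9.58 to 13.1%) and Nts (0.894 to 1.84% against 6.35 to 9.79%) gained too. Sst and Nppb, at 1.24 to 2.23% and 1.30 to 2.17% in ganglia, were left with at most 0.230% and 0.395%. Ganglion and culture ranges did not overlap for any of these 8 genes, nor for Npy (0 to 0.422% against 0.696 to 1.94%).

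**Figure D3:**
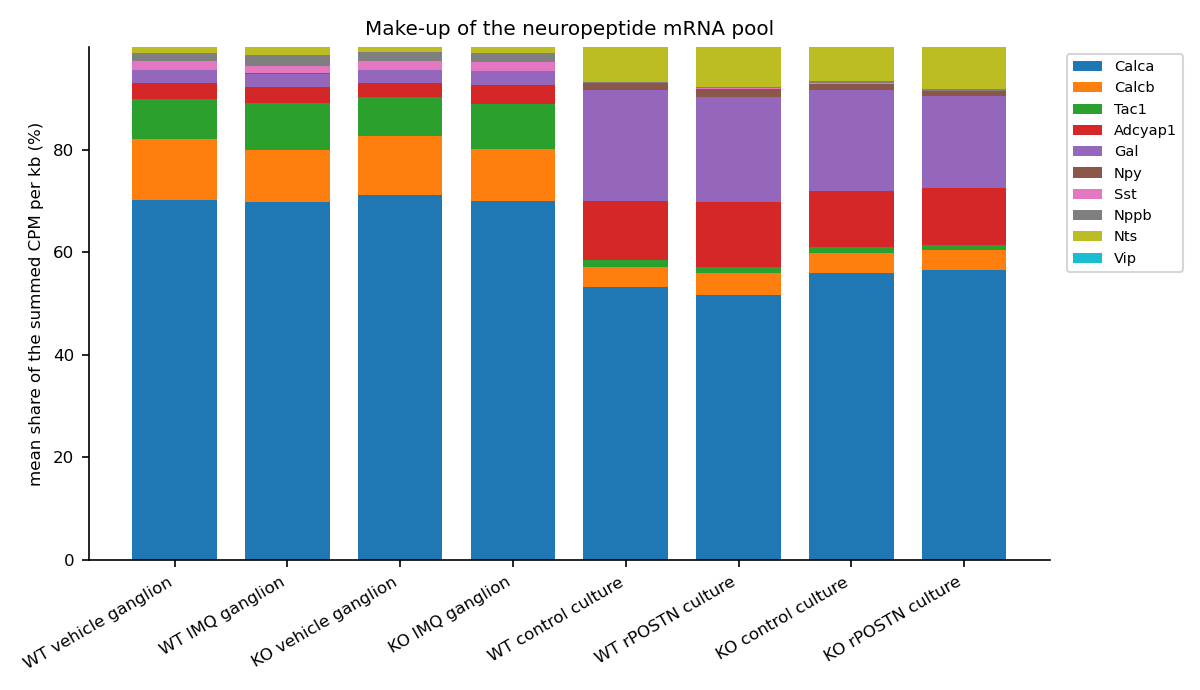
Mean share (%) of each gene in the summed CPM per kb of the 10 neuropeptide genes, by group. Calca fills 69.8 to 71.1% of the 4 ganglion bars and 51.7 to 56.5% of the 4 culture bars, where Gal, Adcyap1 and Nts have larger shares and Calcb, Tac1, Sst and Nppb smaller ones than in ganglia.

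More receptor genes for these peptides fell than rose with culture on the TMM scale. Of 30 receptor genes 20 were tested in WT, of which 4 were higher and 10 lower (median log2 −0.42), and 3 and 11 of 20 in KO. On the pan-neuronal scale the balance turned, with 11 higher and 5 lower in WT (median 0.65) and 10 and 5 in KO. The genes that stayed lower on both scales included Npy2r and Npy1r, neuropeptide Y receptors (log2 −3.76 ± 0.13 and −2.41 ± 0.18 in WT, TMM scale), Galr1, a galanin receptor (−3.59 ± 0.31), and Sstr2, a somatostatin receptor (−3.50 ± 0.39). Galr2, the other main galanin receptor of the ganglion, went from 0.124 to 0.223 CPM in WT vehicle ganglia to 0.79 to 1.33 in WT control cultures (log2 2.61 ± 0.41, edgeR adjusted p = 0.00035). The CGRP receptor pairs Calcrl with Ramp1: Calcrl had log2 values of −0.00 in WT and 0.31 in KO and was not called, and Ramp1, named after its values were seen, was 1.76 to 2.84 CPM in WT vehicle ganglia and at most 0.167 CPM in WT control cultures.

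Genes that make, store and cut the peptides split in a similar way. Of 12 processing enzymes 5 rose and 5 fell in WT, and 3 and 5 in KO, on the TMM scale, against 9 higher and 2 lower in each genotype on the pan-neuronal scale. Pcsk2, a prohormone convertase, and its chaperone Scg5 fell (log2 −2.52 ± 0.09 and −1.69 ± 0.12 in WT), whereas Furin, a convertase of the secretory pathway, and Pam, which amidates peptide ends, rose (1.86 ± 0.12 and 0.70 ± 0.09). Of 15 genes of dense-core vesicle cargo and release 12 fell and 3 rose in WT and 11 and 2 in KO (median log2 −1.07 and −1.36). On the pan-neuronal scale these became 7 lower and 5 higher in WT and 3 and 5 in KO, with medians of 0.00 and −0.07. Scg3, Rab3a, Cadps2 and Rab27b led the decreases (TMM scale, WT log2 −1.91 ± 0.11, −1.75 ± 0.09, −2.58 ± 0.15 and −1.87 ± 0.15), and Vgf, a granin-like precursor, led the increases (1.95 ± 0.18). Among 11 peptide-degrading enzymes 3 rose and 4 fell in WT and 2 and 4 in KO on the TMM scale, with Mme, the enzyme neprilysin, at log2 −2.75 ± 0.15 in WT. On the pan-neuronal scale 6 were higher and 4 lower in WT, and 6 and 2 in KO. Of 23 other neuropeptide genes 12 were tested, and 6 rose and 4 fell in WT, 6 and 5 in KO (7 and 3, 7 and 2 on the pan-neuronal scale). Adm, adrenomedullin, a relative of CGRP, was higher (log2 3.00 ± 0.16 in WT), Nmb, neuromedin B, was lower (−2.86 ± 0.25), and Grp, gastrin-releasing peptide, went from a total of 1 count in the WT vehicle ganglia to 2.95 to 3.41 CPM in WT control cultures.

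**Figure D4:**
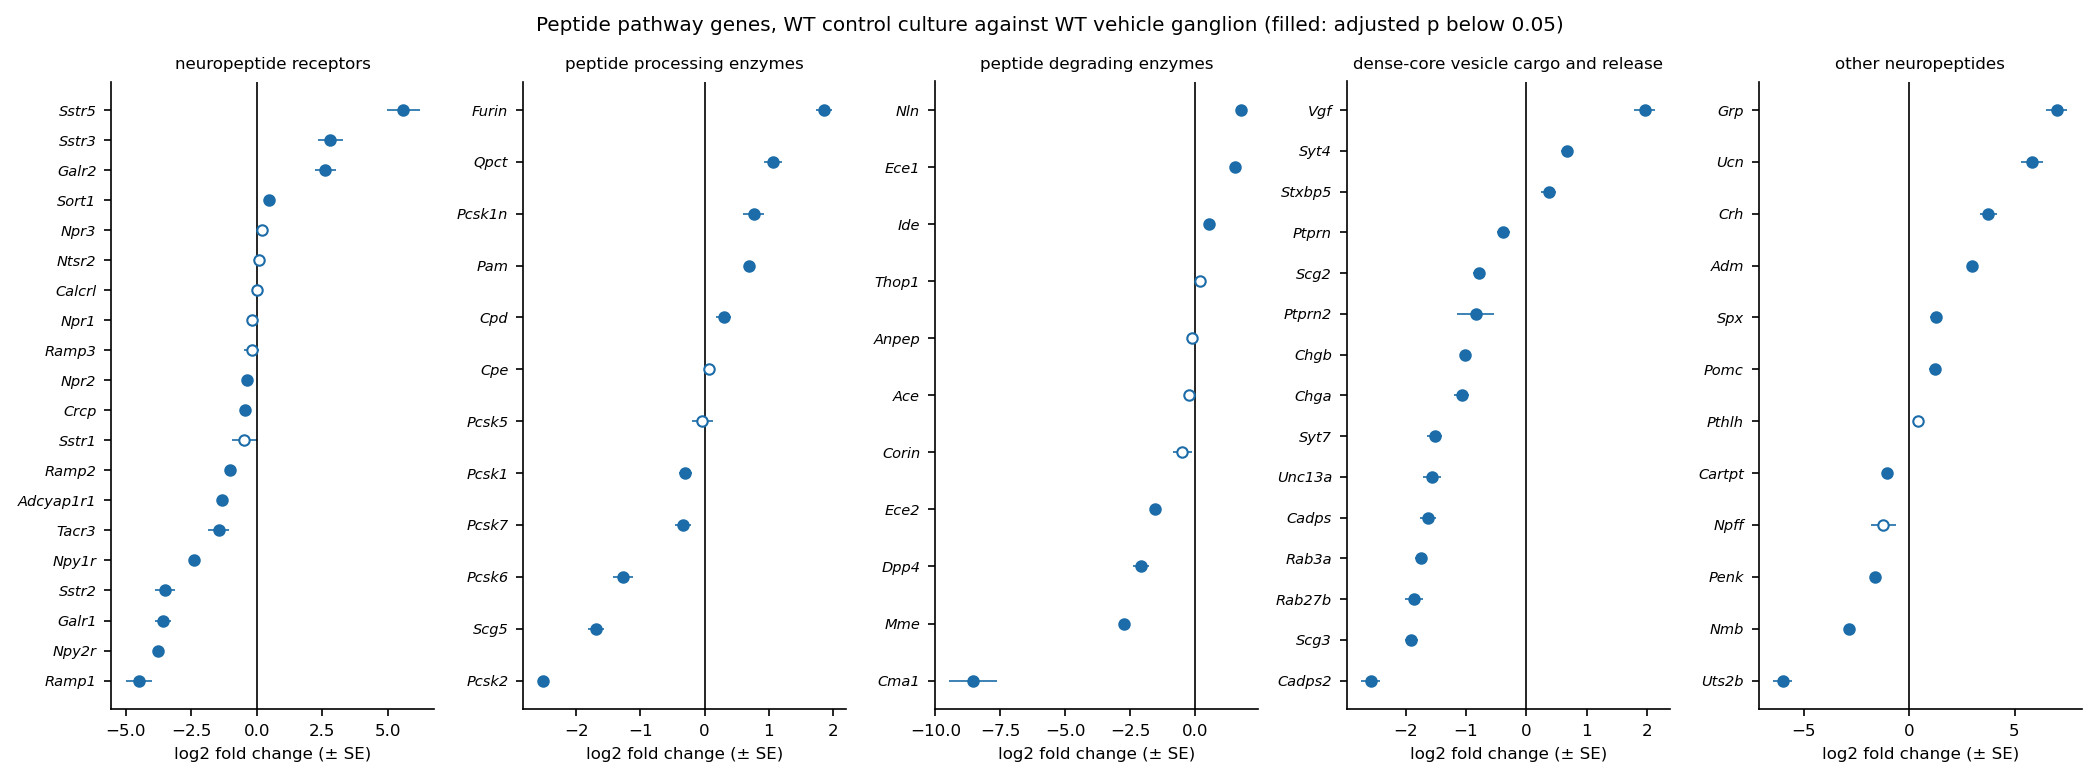
Log2 fold change (± SE, TMM scale) in WT control cultures over WT vehicle ganglia for the genes tested of 5 lists around the peptides, with filled points for an adjusted p below 0.05. Each panel has its own axis, and on the pan-neuronal scale the values lie about 1.07 higher, which turns the median of the receptor list from −0.42 to 0.65 and that of the vesicle list from −1.07 to 0.00.

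No neuropeptide gene of the ganglion was called between IMQ and vehicle. The vehicle libraries are those used above against the cultures. In WT 0 of 9 genes tested were called, against 1.3% of the 17197 genes tested, and in KO 0 of 9 against 1.1%. By the same edgeR test, without a replicate block, 0 of the 9 had an unadjusted p below 0.05 in either genotype, and DESeq2 called 0. Calca was 1524 and 1276 CPM in the WT IMQ ganglia, inside the range of the WT vehicle ganglia given above, with a log2 fold change of −0.05 and a 95% interval of −0.52 to 0.42. In KO it was 1368 and 1189 CPM against 1892, 1286 and 1523 under vehicle (log2 −0.31, interval −0.78 to 0.16). Tac1 was 389.5 and 346 CPM in WT IMQ ganglia and 350.0 and 299 in KO IMQ ganglia, and the groups overlapped with vehicle in both genotypes. It had a log2 value of 0.20 in WT (−0.22 to 0.63) and −0.07 in KO (−0.50 to 0.36), and Adcyap1 0.04 (−0.23 to 0.31) and 0.23 (−0.04 to 0.50). Effects inside these 95% intervals remain compatible with these libraries.

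The lower-abundance genes were less well bounded. Nppb was 21.8 and 15.7 CPM in WT IMQ ganglia (log2 0.31, interval −0.37 to 1.00) and 15.4 and 12.05 in KO IMQ ganglia (−0.30, −1.003 to 0.402). Sst had log2 values of −0.34 in WT and −0.24 in KO, and Gal −0.04 and −0.21. Groups did not overlap for Nts in WT, at 22.9 and 25.2 CPM under IMQ against 15.8 to 22.2 (log2 0.41 ± 0.27, edgeR adjusted p = 1.00), nor for 2 genes in KO. These were Calcb, at 139.5 and 139 CPM against 153 to 249 (log2 −0.49 ± 0.23, edgeR adjusted p = 0.613), and Adcyap1, at 141 and 159 against 116 to 137 (0.629). How many of all genes separate in this way was not counted, so no weight rests on these separations. Npy ran from 0.375 to 2.62 CPM in WT IMQ ganglia, and its log2 value of 2.01 ± 1.22 was 0.08 without WT IMQ ganglion 2 and 5.36 without WT vehicle ganglion 2. WT IMQ ganglion 2 was also the one ganglion library with almost no Xist, an RNA made from the silenced X in female cells (0.187 CPM, where the others had 204 to 251), and the part of sex in these values was not tested.

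The IMQ effect was also compared between genotypes directly. For the interaction of genotype and IMQ 0 of 9 genes were called, against 0% of all genes (364 genes had an unadjusted p below 0.05 by edgeR, and DESeq2 called 5 genes, none of them a neuropeptide gene). Calca differed in its IMQ effect by −0.26 between KO and WT on the log2 scale (interval −0.92 to 0.40), Tac1 by −0.27 (−0.88 to 0.33) and Nppb by −0.61 (−1.60 to 0.37). IMQ did change the ganglia in other respects: 8 of 10 macrophage markers rose in each genotype. The 10 myelinating Schwann cell markers summed to 10425 to 15965 CPM in WT vehicle ganglia and 5495 to 7864 in WT IMQ ganglia (median log2 −0.88, 1 called lower), and to 6842 to 8100 and 5536 to 6026 in KO (median −0.31, 0 called). Among the lists around the peptides, the one called gene in WT was Mme, at 48.5 to 53.2 CPM under vehicle and 27.5 to 29.6 under IMQ (log2 −0.85 ± 0.13, edgeR adjusted p = 0.00994). In KO it was 33.4 to 44.1 against 33.4 to 35.4 CPM (edgeR adjusted p = 0.637). The difference between the genotypes in this effect was 0.64 ± 0.17 (edgeR adjusted p = 0.999), and the WT call was lost when either WT IMQ library was left out (0.143 and 0.108). The part of the Schwann cell markers in the Mme values was not tested.

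One feature of the vehicle libraries bears on these ganglion values. In WT and KO vehicle ganglion 1, log2 CPM fell with gene length by 0.170 and 0.209 for each doubling of exon length, relative to the mean of the ganglion libraries, while the other ganglion libraries ranged from −0.0395 to 0.155. In both of these libraries Calca, Calcb, Tac1, Gal, Sst, Nppb and Nts were at their highest for the group and Adcyap1, the longest of the 10 genes, at its lowest. Exon lengths were 3777 bases for Adcyap1, 3399 for Tac1 and 1684 for Calca. Without WT vehicle ganglion 1 the IMQ effect in WT was 0.14 for Calca and 0.36 for Tac1, and without KO vehicle ganglion 1 it was −0.13 for Calca and −0.25 for Calcb in KO, none of them called. The culture comparison without them gave −1.05 in WT and −1.13 in KO for Calca, 2.61 and 2.29 for Gal and −5.69 and −3.98 for Sst, with all 9 genes called in each genotype. The part of this length trend in the values was not tested.

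**Figure D5:**
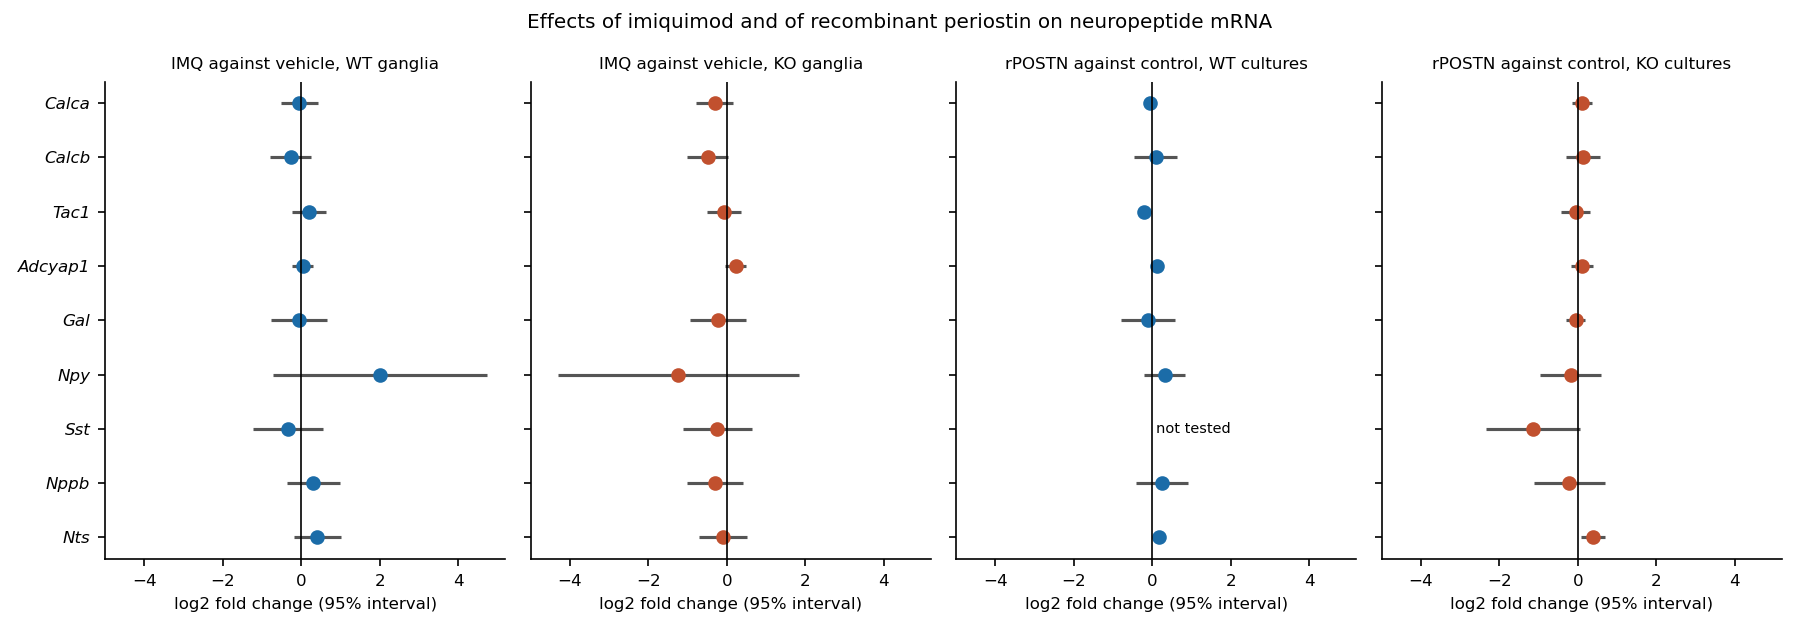
Log2 fold change with its 95% interval for each neuropeptide gene, for IMQ over vehicle in WT and KO ganglia and for rPOSTN over control in WT and KO cultures. No gene was called in any panel. Intervals are narrow for Calca and Adcyap1 and wide for Npy, and Sst was not tested in WT cultures for low counts.

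No neuropeptide gene was called between the genotypes in the ganglion, and DESeq2 called 0. By edgeR without a replicate block, 0 of 9 had an unadjusted p below 0.05 under vehicle or IMQ. With the block, the edgeR unadjusted p in IMQ ganglia was 0.0306 for Nts and 0.0395 for Nppb, both at an adjusted p of 0.944. In vehicle ganglia 0 of 9 genes were called between KO and WT, against 0.0116% of all genes, and log2 values lay between −0.15 for Adcyap1 and 0.20 for Sst, apart from Npy at 1.29 ± 1.19. For Calca the difference was 0.13 with an interval of −0.29 to 0.54, and for Tac1 0.09 (−0.29 to 0.47). In IMQ ganglia, which also serve the comparisons above, 0 of 9 were called against 0.00581% of all genes. Calca stood at −0.14 there (−0.65 to 0.38) and Nts at −0.54 (−1.22 to 0.13), with both KO libraries of Nts (18.8 and 14.3 CPM) below both WT libraries. The libraries also separated for Calcb and Nppb, lower in KO (log2 −0.14 and −0.46), and for Sst, higher in KO (0.29). How many of all genes separate between these groups was not counted, so the separations carry no weight.

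Recombinant periostin moved no neuropeptide gene past the threshold in culture. In WT cultures 0 of 8 genes tested were called by edgeR, against 0% of 16639 genes (661 with an unadjusted p below 0.05, and 0 called by DESeq2). With the replicate number as a block, 8 genes were called, none of them a neuropeptide gene. Tac1 was 31.3, 32.0 and 30.1 CPM in controls and 29.0, 28.3 and 23.9 with rPOSTN. The groups did not overlap, yet the difference was small (log2 −0.21 ± 0.08, unadjusted p = 0.0154, edgeR adjusted p = 0.999, and 0.446 with the block). Separation of the groups was not counted over all genes here, so it carries no weight. Nts (log2 0.16 ± 0.06) and Adcyap1 (0.11 ± 0.05) were the other genes with an unadjusted p below 0.05 without the block, both with an edgeR adjusted p of 0.999. With the block, the edgeR unadjusted p was 0.0039 for Tac1, 0.0043 for Nts, 0.0088 for Adcyap1, 0.0237 for Gal and 0.0407 for Calca. It was above 0.05 for Calcb, Npy and Nppb. The adjusted p of the genes below 0.05 ran from 0.446 to 0.679. The share of all genes with an unadjusted p below 0.05 under the block was not counted, so no weight rests on these values. Calca was 624, 633 and 574 CPM in controls and 602, 578 and 571 with rPOSTN, a log2 value of −0.07 with an interval of −0.17 to 0.03.

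In KO cultures 0 of 9 genes were called by edgeR, against 0% of 16756 genes (155 with an unadjusted p below 0.05, and 0 called by DESeq2). Nts was 63.4, 54.0 and 57.5 CPM in controls and 84.2, 61.0 and 82.6 with rPOSTN, higher at each library number but with overlapping groups. Its log2 fold change was 0.38 ± 0.14 (interval 0.07 to 0.69, edgeR unadjusted p = 0.0221, adjusted p = 0.9996). With the replicate block, the edgeR unadjusted p of Nts was 0.0017, at an adjusted p of 0.999. Sst was 0.678, 0.651 and 1.16 CPM in controls and 0.256, 0.520 and 0.340 with rPOSTN, from 5 to 24 counts per library. These groups did not overlap, and the log2 fold change was −1.15 ± 0.54 (unadjusted p = 0.0577, edgeR adjusted p = 0.9996). As in WT cultures, such separation was not counted over all genes. KO rPOSTN culture 1, the highest of its group for Nts and Calca and the lowest for Sst, had a slope of −0.140 on gene length, and its part in these values was not tested. The interaction of genotype and rPOSTN called 0 of 9 genes against 0% of all genes (342 with an unadjusted p below 0.05, 0 called by DESeq2, and 2 genes with the block, neither a neuropeptide gene). For Sst it was −1.37 on the log2 scale (interval −2.91 to 0.18), and for Nts 0.22 (−0.13 to 0.57).

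Between untreated KO and WT cultures, Sst stood closest to a call. Its level was 0.678, 0.651 and 1.16 CPM in KO controls, all above the 0.158, 0.211 and 0.291 CPM of WT controls, a 3.64-fold difference (log2 1.86 ± 0.49, unadjusted p = 0.00183) with an edgeR adjusted p of 0.0755. None of the 9 genes was called by edgeR, against 1.61% of all genes. DESeq2 called none of them either, but it gave no adjusted p for Sst. By edgeR, Sst was the 1 gene with an unadjusted p below 0.05. The other alternatives for Sst gave edgeR adjusted p from 0.0758 to 0.342. Without KO control culture 3, the KO control with the most Postn, the log2 value was 1.54 (edgeR adjusted p = 0.213). Tac1 was lower in all 3 KO controls (24.97, 23.3 and 28.8 CPM) than in any WT control (log2 −0.28 ± 0.13, edgeR adjusted p = 0.321), and Calca was higher in all 3 (646, 637 and 680 CPM, log2 0.10 ± 0.09). How many of all genes separate between the control cultures was not counted, so these separations and that of Sst carry no weight. WT and KO cultures sit in separate deposited tables, so genotype and table cannot be told apart. Xist was 709 to 1089 CPM in the KO controls and in the WT controls 0.421, 0.790 and 1142 CPM, and the part of sex was not tested. Of the receptor list, Sort1, a neurotensin-binding sorting receptor, was called (log2 −0.37 ± 0.08, edgeR adjusted p = 0.0322), a call that was lost on leaving out any 1 of the 6 libraries (0.0526 to 0.195).

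Last, each of the 9 genes that passed the filter was set beside the genes with the most similar profile over the 22 libraries, measured as the root mean square difference of centred log2 CPM among 13786 genes. Nearest to Calca were Fopnl (0.0653) and Sh3glb2 (0.0859), and to Calcb Gmpr (0.133) and Ndufab1 (0.176). Tac1 lay nearest to Tspan8 (0.191) and Trarg1 (0.193), and Adcyap1 to Rhoq (0.113) and Fam53c (0.123). These distances are small beside the spread of the profiles themselves, which was 0.604 for Calca and 1.80 for Tac1 in the same unit. Gal lay nearest to Slc35e4 (0.202) and Lmna (0.218), and Nts to Tagln2 (0.159) and Emp3 (0.177). Sst lay nearest to Rpl22l1 (0.363), Nppb to Fndc5 (0.250) and to the pseudogene Rps23-ps1 (0.245), whose reads may belong to related copies, and Npy to Fosl1 (0.545) and Trp53i11 (0.557). None of the 9 was among the 2 nearest genes of another. The profiles hold the step from ganglia to cultures, which the neighbours share. Fopnl averaged 69.0 CPM in ganglia and 30.6 in cultures, and Rhoq 139 and 319. Whether neighbours share regulation was not tested.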

How the data were processed

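Whole-number read counts per Ensembl gene were used as the authors deposited them, in 3 tables with 22 libraries and 55487 genes. Libraries were poly-A selected, strand-specific and paired-end, per the labels' protocols. Bowtie2 2.2.3, TopHat2, HISAT2 2.1.0 and GRCm39 are listed in the submitters' processing notes. For the counting tool, strand setting and annotation, nothing is stated in the sources used here. Libraries held 16.7 to 24.1 M counts.

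Each comparison was fitted over all genes passing filterByExpr with edgeR 4.0.16 (robust quasi-likelihood test, TMM scaling, Benjamini-Hochberg adjustment, called below 0.05) in R 4.3.3 with limma 3.58.1. Scripts were tested on simulated data. Alternatives were DESeq2 1.42.0, RLE scaling, no filter, a replicate block, leaving out each library and, for culture against ganglion, scaling to 15 pan-neuronal genes. Levels per kb use GENCODE exon lengths. Deviations of same-numbered libraries from their group means were correlated across 10955 genes. The r was 0.30, 0.30 and 0.56 between WT control and rPOSTN cultures, and 0.38, 0.69 and 0.60 between KO cultures. Between WT and KO vehicle ganglia it was 0.89, 0.84 and 0.17, where both libraries numbered 1 share the length trend given above. Whether same numbers share animals is not known here. The main fits held no replicate block, and pairing by number entered only as the block among the alternatives.

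The 10 genes and the 20 gene lists were chosen with earlier results of these data known. All 10 genes are named in the comparisons, and from other lists at most the 4 called genes with the smallest p in each direction, plus the 2 nearest profiles per gene. One such neighbour and 1 marker gene are not reported here. Figures were drawn with Python 3.11.15 and matplotlib 3.10.9.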

Additional observations from a re-analysis of the deposited data

How the results depend on the processing

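The 9 neuropeptide calls between culture and ganglion were made in each genotype under DESeq2, RLE scaling, no filter, the replicate block and on leaving out each library. Scaling to pan-neuronal genes ended the Calca call (log2 −0.16 in WT) and turned its sign in KO (0.0077). Of 80 uncalled neuropeptide results, 37 changed sign under some alternative and 0 were called under any. For Sst between control cultures, DESeq2 gave no adjusted p. Counts over all genes moved more. DESeq2 called 5 genes for the IMQ interaction, 30 between KO and WT vehicle ganglia, 4 between IMQ ganglia and 693 between control cultures (0, 2, 1 and 282 with edgeR). Without the filter on low counts these were 2, 22, 2 and 663, and 2 genes were called for rPOSTN in WT cultures (0 with it). With the replicate block, 8 genes were called for rPOSTN in WT cultures and 2 for the rPOSTN interaction (0 and 0 without the block), and it changed no neuropeptide call. Between KO vehicle and KO IMQ ganglia, same-numbered libraries also deviated together (r = 0.745 and 0.748). For IMQ in KO ganglia the replicate block gave edgeR unadjusted p of 0.0087 for Calcb, 0.0204 for Calca and 0.0352 for Adcyap1 (adjusted p 0.154, 0.187 and 0.224). The share of all genes with so low an unadjusted p under the block was not counted in any comparison. Leaving out 1 library at a time gave 82 to 160 genes for IMQ in WT (224 with all), 56 to 165 in KO (190), 0 to 1 for the IMQ interaction, 0 to 2 between vehicle ganglia, 0 to 1 between IMQ ganglia and 24 to 97 between control cultures (282), lowest without WT control culture 1. The causes were not tested. Groups of 2 or 3 libraries, and 0 to 24 counts per culture for Sst and Vip, limit what could be detected.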
